A study of Mus musculus with 10 samples.

Results

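The SREBP target set examined here held 34 mouse genes listed as sterol synthesis enzymes, fatty acid synthesis enzymes and regulators of both, out of 55401 gene identifiers counted. Of the 34 genes, 19 act in sterol synthesis or sterol transfer, 10 in fatty acid synthesis and desaturation, and 5 in the control of both. All 34 were matched by symbol to the mouse annotation, and all 34 passed the filter on low counts in every comparison. RNA sequencing was carried out on Neuro2a, a mouse neuroblastoma cell line labelled wild-type, after transfection with 0.5 µg of plasmid by Lipofectamine and 72 h of incubation in medium with 10% serum. The plasmids were of 4 kinds. ZF-SCN9A carried a zinc-finger protein, an engineered DNA-binding protein, directed at SCN9A, the gene of the sodium channel NaV1.7 (2 libraries), and was set against mCherry, a red fluorescent protein (2 libraries). dCas9-SCN9A carried a Cas9 that binds DNA without cutting it, directed at SCN9A (3 libraries), and was set against dCas9-empty (3 libraries). Every group was therefore a transiently transfected pool of 1 cell line. The label of the mCherry plasmid names no zinc finger, so the presence of a zinc-finger protein and its action on SCN9A cannot be told apart in that arm. What dCas9-empty lacks, the site each repressor binds and the share of cells that took up plasmid are stated in none of the sources used here.

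Sterol regulatory element-binding proteins (SREBPs) are transcription factors made as precursors in the membrane of the endoplasmic reticulum. When sterols are plentiful, the escort protein Scap and the retention proteins Insig1 and Insig2 hold the precursor there. When sterols are scarce, Scap carries the precursor to the Golgi, where proteases release the active part, which enters the nucleus and binds sterol regulatory elements near its target genes. SREBP2, the product of Srebf2, acts mainly on genes of cholesterol synthesis, and SREBP1, the product of Srebf1, mainly on genes of fatty acid synthesis. Cholesterol is built from acetyl-CoA through mevalonate, squalene and lanosterol, and fatty acids from acetyl-CoA through malonyl-CoA. Neurons and glia make their own cholesterol, since lipoproteins of the blood do not cross into the brain.

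The libraries held 4.41 to 6.30 M gene counts (M is 1e6) in ZF-SCN9A and 6.59 to 7.48 M in mCherry, and 15.4 to 16.4 M in dCas9-SCN9A and 17.8 to 18.99 M in dCas9-empty. Scn9a, the targeted gene, stood at 18.8 and 15.6 CPM (counts per M gene counts, scaled between libraries) in ZF-SCN9A and 62.2 and 56.2 CPM in mCherry. It stood at 30.9, 30.8 and 28.2 CPM in dCas9-SCN9A and 75.1, 80.9 and 78.1 CPM in dCas9-empty, so that the libraries followed their labels. Of 12 neuroblastoma and sympathoadrenal markers, 10 averaged at least 1 CPM in every group. Their summed level was 3187 to 3222 CPM in ZF-SCN9A, 3054 to 3175 in mCherry, 3990 to 4468 in dCas9-SCN9A and 4020 to 4307 in dCas9-empty, each arm scaled on its own. Alb, the hepatocyte gene for serum albumin, had no count in ZF-SCN9A and mCherry but stood at 78.7, 20.1 and 23.2 CPM in dCas9-SCN9A and at 94.6, 25.0 and 30.9 CPM in dCas9-empty.

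Promoters of 3 genes that fell with the zinc finger are shown, a pair from the sterol branch and the fatty acid synthase gene. Whether SREBPs act through these sequences was not tested. Each line gives the 250 bases before the RefSeq start (GRCm38.p6), 5′ to 3′ on the gene's own strand. Hmgcs1 is on the plus strand at chr13:119690101-119690350, Lss on the plus strand at chr10:76531355-76531604 and Fasn on the minus strand at chr11:120824548-120824797. Capitals mark matches, on either strand, to the sterol regulatory element TCACNCCAC, the CCAAT box CCAAT and the GC box GGGCGG.
Hmgcs1: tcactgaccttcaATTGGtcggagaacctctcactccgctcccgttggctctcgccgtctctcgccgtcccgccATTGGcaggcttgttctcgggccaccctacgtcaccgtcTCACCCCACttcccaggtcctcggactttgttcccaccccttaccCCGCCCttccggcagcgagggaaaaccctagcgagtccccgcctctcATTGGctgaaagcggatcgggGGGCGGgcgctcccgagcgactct
Lss: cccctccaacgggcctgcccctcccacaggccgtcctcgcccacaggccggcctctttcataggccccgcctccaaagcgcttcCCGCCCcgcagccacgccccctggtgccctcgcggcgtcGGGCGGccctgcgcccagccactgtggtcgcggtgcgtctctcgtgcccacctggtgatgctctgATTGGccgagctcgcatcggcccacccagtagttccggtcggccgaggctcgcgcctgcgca
Fasn: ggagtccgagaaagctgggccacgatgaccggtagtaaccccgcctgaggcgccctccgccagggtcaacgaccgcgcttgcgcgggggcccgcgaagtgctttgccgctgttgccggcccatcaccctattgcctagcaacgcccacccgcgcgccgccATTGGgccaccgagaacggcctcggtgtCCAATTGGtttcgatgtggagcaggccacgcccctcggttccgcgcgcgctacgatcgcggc
The match to the sterol regulatory element in Hmgcs1 lies 137 bases before the start, and the Lss and Fasn sequences held no such match. In Fasn a CCAAT box and its reverse complement overlap, 62 and 59 bases before the start.

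RefSeq promoters were found for 27 of the 34 genes and for 9642 genes tested in the zinc-finger comparison. A gene was counted once if any of its promoters held the letters. The share of all promoters counts each promoter by itself and is an unlike measure. The sterol regulatory element letters occurred in 1 of the 27, Hmgcs1, against 1.255% of these tested genes and 1.05% of all 32851 promoters. A CCAAT box occurred in 21 of the 27 (77.8%), against 41.4% of the tested genes and 33.9% of all promoters. It was found in 14 of 15 sterol genes and 3 of 7 fatty acid genes. A GC box occurred in 23 of the 27 (85.2%), against 64.9% of the tested genes and 32.7% of all promoters. It was found in 14 of 15 sterol and 4 of 7 fatty acid genes. The Cyp51 promoter held 1 CCAAT box and 1 GC box, and the Elovl6 promoter held none of the 3 motifs. These are matches of letters in a fixed window and say nothing of binding.

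With the zinc finger, 8 of the 34 genes fell and 0 rose in ZF-SCN9A relative to mCherry. A decrease that passed the same test was found for 2.78% of the 12899 genes tested, and a change in either direction for 4.72%. The 8 genes encode enzymes of both branches, 4 of 19 in sterol synthesis and 4 of 10 in fatty acid synthesis, while 0 of 5 regulators passed. The log2 fold change was below 0 in 33 of 34 genes, against 49.6% of all genes tested. Its median over the 34 genes was -0.22, against a median near 0 over all genes, and at most it was -0.46, so that the decreases were small. A called gene has a Benjamini-Hochberg adjusted p under 0.05, taken over all genes tested, from the quasi-likelihood test of edgeR. At an unadjusted p under 0.05, 18 of the 34 genes were lower and 0 higher, against 8.4% lower of all genes. The genes were chosen with earlier results of these data known, among them the sterol decreases with the zinc finger. Counts of the 34 genes set against all genes may be partly fixed by that choice and are no independent test. In a pooled culture, fewer cells with a transcript and less transcript per cell cannot be told apart.

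**Figure D1:**
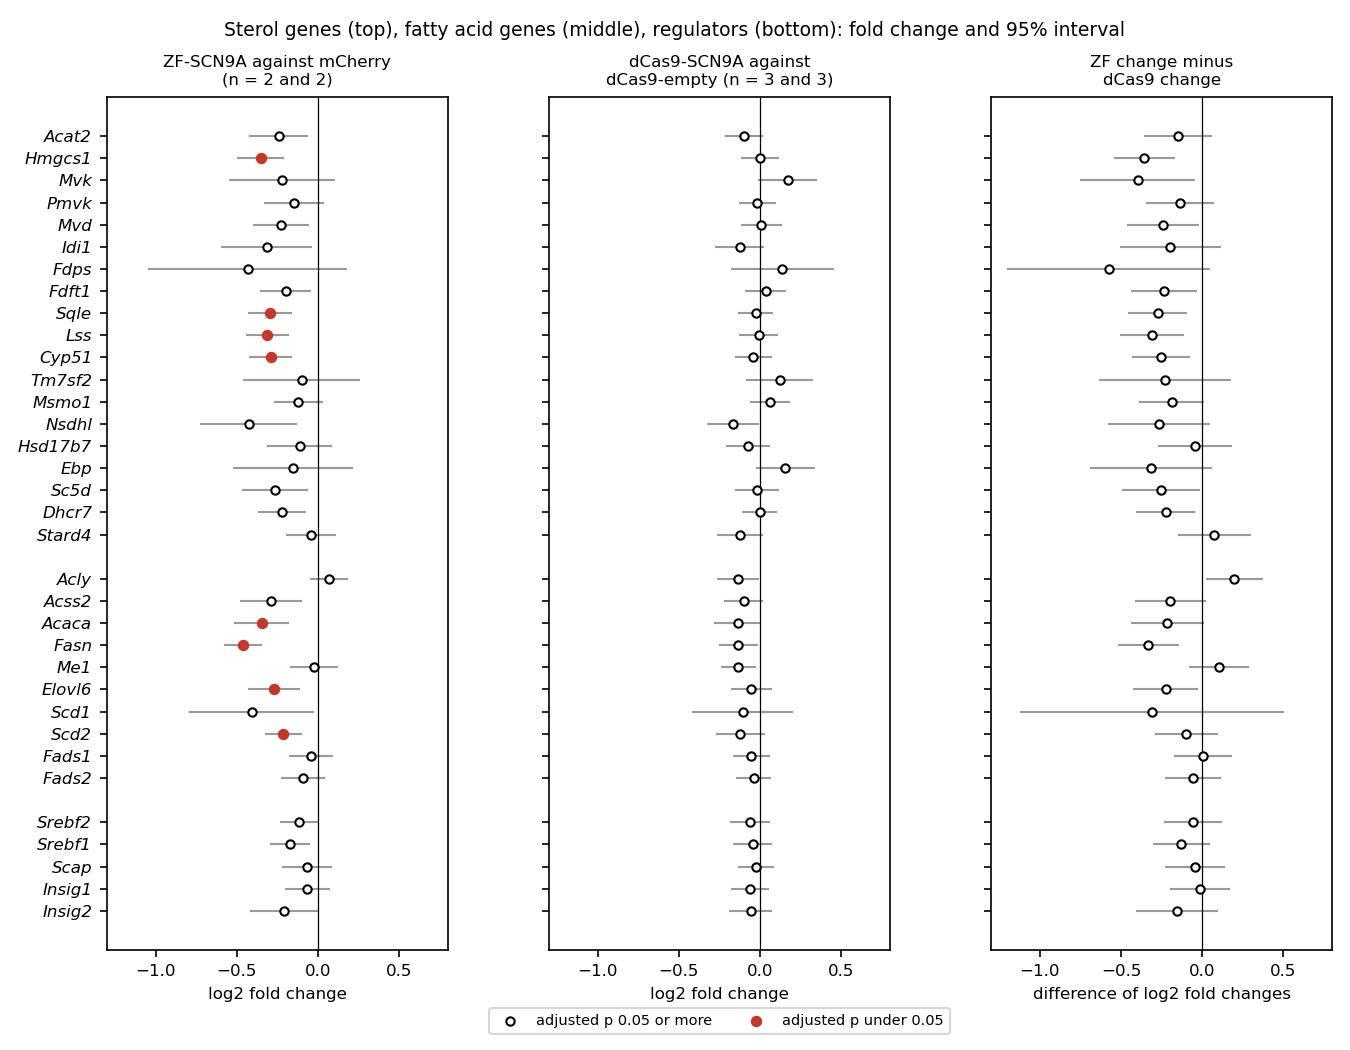
Log2 fold change (points) with its 95% interval (lines) for each of the 34 genes in ZF-SCN9A against mCherry, in dCas9-SCN9A against dCas9-empty, and for the change with ZF minus the change with dCas9. Filled points, adjusted p under 0.05, are 8 in the zinc-finger panel and 0 in the other panels, and 33 of 34 points of the zinc-finger panel lie left of 0.

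In the early, mevalonate stage of sterol synthesis, 1 of 5 genes fell, against 2.78% of all genes tested. Hmgcs1 encodes HMG-CoA synthase, which joins acetyl-CoA to acetoacetyl-CoA (chromosome 13, 119690379 to 119708260 in GRCm38). It stood at 151 and 162 CPM in ZF-SCN9A, against 205 and 193 CPM in mCherry. Both ZF-SCN9A libraries were below both mCherry libraries, and the level was 78.4% of that with mCherry (log2 fold change -0.35 ± 0.07, SE, adjusted p = 0.00019). As in 22.3% of all genes tested, the other 4 genes of this stage had both ZF-SCN9A libraries below both mCherry libraries. None of the 4 passed. They are Acat2, the cytosolic acetoacetyl-CoA thiolase, at -0.24 ± 0.09, the mevalonate kinase Mvk at -0.22 ± 0.17, the phosphomevalonate kinase Pmvk at -0.15 ± 0.09 and the decarboxylase Mvd at -0.23 ± 0.09 (log2 fold change ± SE). Exons of the antisense gene Gm48342 overlap 12.1% of the exon bases of Hmgcs1, and the counting did not use strand.

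From isopentenyl units to lanosterol, 2 of 5 genes fell, against 2.78% of all genes tested. Sqle encodes squalene epoxidase, a rate-limiting enzyme of sterol synthesis (chromosome 15, 59315077 to 59331192). Its level was 243 and 217 CPM in ZF-SCN9A, against 279 and 287 CPM in mCherry. The groups did not overlap, with 81.6% of the mCherry level remaining (log2 fold change -0.29 ± 0.07, SE, adjusted p = 0.000986). Lss, lanosterol synthase, closes epoxidised squalene into the sterol ring system (chromosome 10, 76531588 to 76557138). It stood at 235 and 252 CPM in ZF-SCN9A, against 282 and 322 CPM in mCherry. The lower mCherry library still exceeded both ZF-SCN9A libraries, and the log2 fold change was -0.31 ± 0.07 (SE, adjusted p = 0.000288).

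The isomerase Idi1, the farnesyl diphosphate synthase Fdps and the squalene synthase Fdft1 had log2 fold changes of -0.31 ± 0.14, -0.43 ± 0.31 and -0.20 ± 0.08 (SE) and did not pass. Fdps had the largest fold change of the sterol branch and its widest interval, from -1.04 to 0.18. It was counted at only 5.21 and 4.30 CPM in ZF-SCN9A and 6.86 and 6.18 CPM in mCherry. Gene Gm43738, on the same strand, shares 26.7% of the exon bases of Fdps, and Ctsb overlaps 18.3% of those of Fdft1, so that reads of these pairs may have been left uncounted or split.

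After lanosterol, 1 of 8 genes fell, against 2.78% of all genes tested. Cyp51 encodes the lanosterol demethylase, a cytochrome P450 (chromosome 5, 4081145 to 4104746). It stood at 216 and 229 CPM in ZF-SCN9A, against 275 and 268 CPM in mCherry. The ZF-SCN9A libraries lay below both others (log2 fold change -0.29 ± 0.07, SE, adjusted p = 0.00144). A pair of genes came close to the threshold without passing. Nsdhl, a sterol dehydrogenase that removes methyl groups with its partners, was at -0.43 ± 0.15 (adjusted p = 0.0797), and Dhcr7, a reductase of the last step to cholesterol, at -0.22 ± 0.08 (adjusted p = 0.0652). The reductase Tm7sf2, the methyl oxidase Msmo1, the ketoreductase Hsd17b7, the isomerase Ebp and the desaturase Sc5d had log2 fold changes between -0.26 and -0.10. Stard4, which carries cholesterol between membranes, was at -0.04 ± 0.08. Its libraries overlapped, at 132 and 134 CPM in ZF-SCN9A and 128 and 145 CPM in mCherry.

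In the fatty acid branch Acaca, Fasn, Elovl6 and Scd2 fell, while the enzymes that supply acetyl-CoA and NADPH and the desaturases of polyunsaturated fatty acids did not pass. Fasn, the synthase that builds palmitate from malonyl-CoA, had the largest change of the set (chromosome 11, 120805846 to 120824547). It stood at 795 and 928 CPM in ZF-SCN9A, against 1159 and 1208 CPM in mCherry, or 861 ± 93.9 and 1183 ± 34.4 CPM (mean ± SD, n = 2 each). The groups were well apart, with 72.7% of the mCherry level remaining (log2 fold change -0.46 ± 0.06, SE, adjusted p = 1.22e-11). Acaca, acetyl-CoA carboxylase, makes malonyl-CoA and so commits carbon to fatty acids (chromosome 11, 84129672 to 84401651). Its level was 86.3 and 90.7 CPM in ZF-SCN9A, against 115 and 110 CPM in mCherry. The groups did not overlap, with 78.7% of the mCherry level remaining (adjusted p = 0.00343).

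Elovl6, which lengthens palmitate to stearate (chromosome 3, 129532355 to 129638495), stood at 107 and 103 CPM in ZF-SCN9A, against 129 and 125 CPM in mCherry. The groups did not overlap (log2 fold change -0.27 ± 0.08, SE, adjusted p = 0.0293). Scd2, the stearoyl-CoA desaturase of brain, was the most abundant transcript of the set (chromosome 19, 44293674 to 44306864). Its level was 2395 and 2435 CPM in ZF-SCN9A, against 2738 and 2856 CPM in mCherry. Both ZF-SCN9A libraries were lower (log2 fold change -0.21 ± 0.06, SE, adjusted p = 0.0116). Its neighbour and close paralog Scd1 was rare, at 11.4 and 12.9 CPM in ZF-SCN9A and 11.6 and 20.01 CPM in mCherry. Those libraries overlapped, the log2 fold change of -0.41 ± 0.20 did not pass and was 0.06 without mCherry replicate 2 and -0.73 without mCherry replicate 1 (then adjusted p = 0.0324), and reads that match both desaturases may have been left uncounted.

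**Figure D2:**
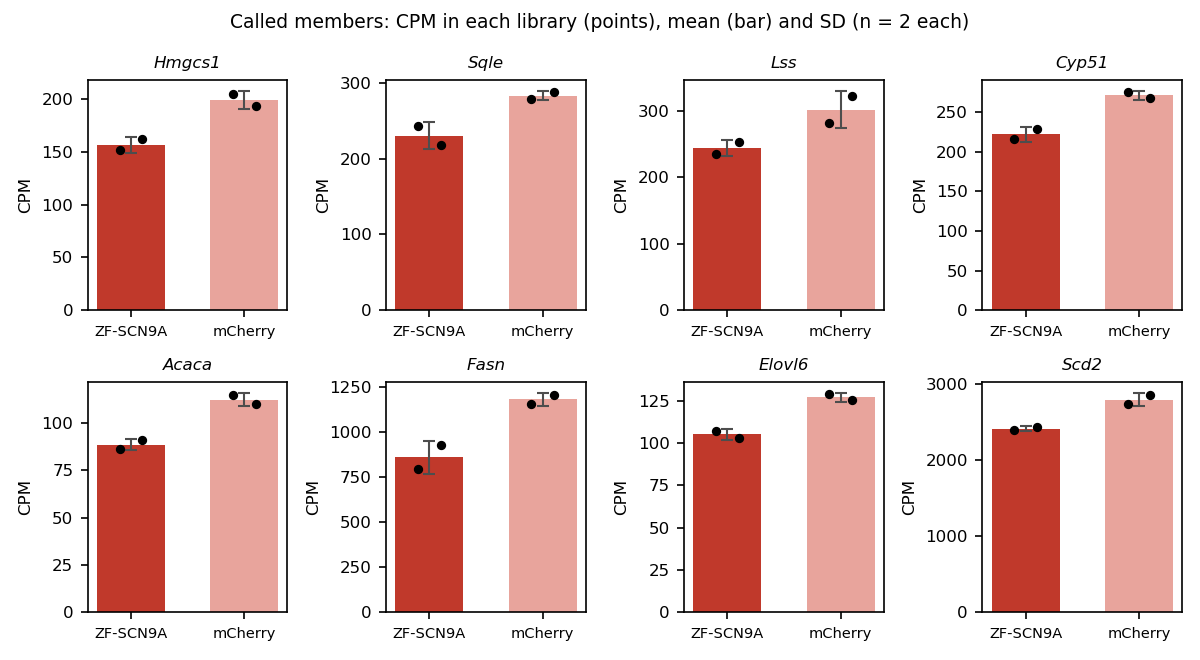
CPM in each library (points), mean (bar) and SD (line) of the 8 genes that passed in ZF-SCN9A against mCherry, n = 2 each. In every panel both ZF-SCN9A points lie below both mCherry points, from 72.7% of the mCherry level for Fasn to 86.4% for Scd2.

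Acss2, which makes acetyl-CoA from acetate, was at -0.29 ± 0.10 (SE, adjusted p = 0.0604). Acly, which makes cytosolic acetyl-CoA from citrate, was the only gene of the 34 with a positive value, 0.07 ± 0.06 (adjusted p = 0.646). It stood at 1248 and 1292 CPM in ZF-SCN9A and 1188 and 1235 CPM in mCherry. The malic enzyme gene Me1 was at -0.02 ± 0.07 and the desaturases Fads1 and Fads2 at -0.04 ± 0.07 and -0.09 ± 0.07. The 95% intervals of these 4 genes reached from -0.23 at the lowest to 0.19 at the highest.

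No regulator passed. Srebf2 stood at 697 and 718 CPM in ZF-SCN9A and 730 and 800 CPM in mCherry (log2 fold change -0.11 ± 0.06, SE, adjusted p = 0.353). Srebf1 stood at 434 and 434 CPM in ZF-SCN9A and 474 and 501 CPM in mCherry (-0.17 ± 0.06, adjusted p = 0.103). Neither group pair overlapped, yet 22.3% of all genes tested had both ZF-SCN9A libraries below both mCherry libraries. Srebf1 was called lower under 2 of the 14 alternatives tried, both with the replicate number as a block. Scap was at -0.07 ± 0.08, with overlapping libraries of 130 and 138 CPM in ZF-SCN9A and 136 and 144 CPM in mCherry. Insig1, itself an SREBP target in other cells, was at -0.06 ± 0.07, with 192 and 193 CPM in ZF-SCN9A and 199 and 204 CPM in mCherry. Insig2 had the largest fold change of the 5, -0.21 ± 0.11, with 58.1 and 49.3 CPM in ZF-SCN9A and 58.8 and 65.8 CPM in mCherry. Messenger RNA does not report SREBP cleavage, which was not measured.

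By branch, the median log2 fold change was -0.23 over the sterol genes, -0.24 over the fatty acid genes and -0.11 over the regulators. Within the sterol branch it was -0.23 in the mevalonate stage, -0.31 in the squalene stage and -0.19 after lanosterol. In single libraries, set against the mean of the mCherry libraries, the sterol median was -0.22 and -0.25 in ZF-SCN9A, against -0.02 and 0.02 in mCherry. The fatty acid median was -0.23 and -0.22 in ZF-SCN9A, against -0.03 and 0.03 in mCherry. Both medians were lower in both ZF-SCN9A libraries than in either mCherry library. The log2 fold changes of single genes spread from -0.46 to 0.07 among fatty acid genes and from -0.43 to -0.04 among sterol genes. In all, 27 of the 34 genes had both ZF-SCN9A libraries below both mCherry libraries, against 22.3% of all genes tested. Genes of a pathway vary together from library to library and are not replicates.

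**Figure D3:**
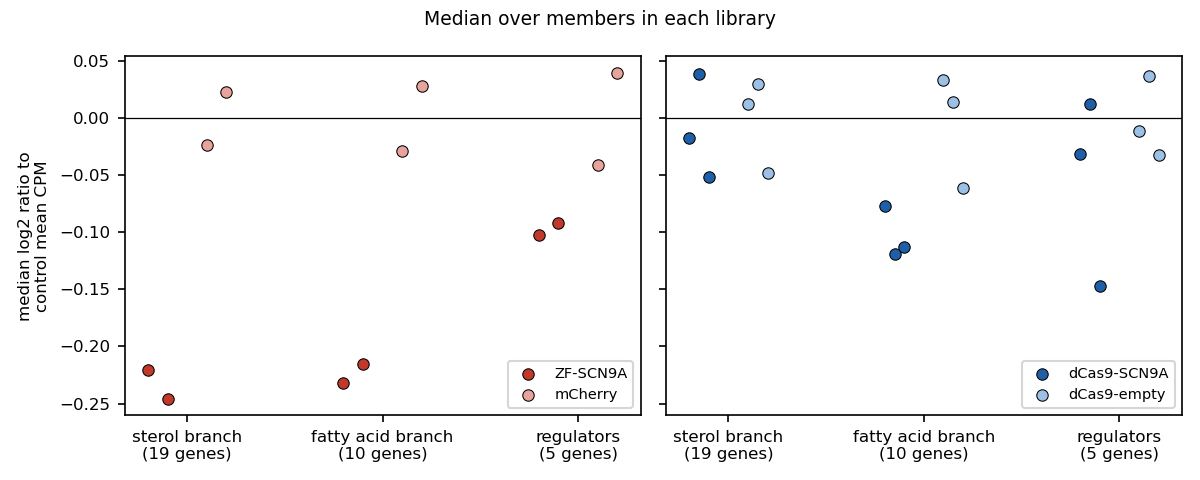
Median over the genes of each branch of the log2 ratio of CPM to the mean of the control libraries, 1 point per library, with the zinc-finger arm on the left (n = 2 each) and the dCas9 arm on the right (n = 3 each). The ZF-SCN9A points lie at -0.22 to -0.25 for both synthesis branches. The dCas9-SCN9A points lie at -0.05 to 0.04 for the sterol genes and at -0.12 to -0.08 for the fatty acid genes.

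The number of calls depended on single libraries and on the tool, over all genes as well as in the set. Fasn was called under all 14 alternatives tried. DESeq2 called 2 of the 34 genes, Hmgcs1 and Fasn, and gave no adjusted p for Fdps. Over all 12899 genes tested it called 128, against 609 by edgeR. Without ZF-SCN9A replicate 1 the calls were 2, Sqle and Fasn, and without ZF-SCN9A replicate 2 they were 5, with Sqle, Elovl6 and Scd2 lost. Acaca and Elovl6 were not called without mCherry replicate 1, nor Lss and Scd2 without mCherry replicate 2. In that last case the fatty acid median was -0.14 and 6 of 10 genes were negative. Among other measures that moved in this arm, the catecholamine enzyme gene Dbh (0.71) and the granin Chga (0.25) were called higher and the transcription factor Hand2 (-0.20) lower, of 10 neuroblastoma markers tested. Of 5 fibroblast markers, 3 were tested and Col1a1, a collagen chain, was called higher (1.07), with the summed level of the list at 15.6 to 21.6 CPM in ZF-SCN9A and 13.7 to 18.4 in mCherry. The part of depth and of these changes in the result was not tested.

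Pathway genes outside the set were counted in lists of related function. Of 18 genes of other fatty acid synthesis, elongation and activation steps, 16 were tested, 4 fell and 0 rose with the zinc finger, against 2.78% of all genes tested called lower and 4.72% in either direction. The 4 were Acsl1, Acsl3, Acsl4 and Aacs. The long-chain acyl-CoA synthetase gene Acsl1 changed more than any of the 34 genes, at 44.5 and 42.5 CPM in ZF-SCN9A, against 111 and 108 CPM in mCherry. That is 39.9% of the mCherry level (log2 fold change -1.33 ± 0.10, SE, adjusted p = 3.06e-37). The related synthetase genes Acsl3 and Acsl4 were at -0.36 ± 0.08 and -0.38 ± 0.06, and Aacs, which activates acetoacetate for lipid synthesis, at -0.26 ± 0.08 (adjusted p = 0.00103, adjusted p = 5.51e-07 and adjusted p = 0.0401).

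Among 7 tested genes of sterol export and its control, 1 fell, against the same 2.78% of all genes. It was Nr1h2, which encodes LXR beta, a nuclear receptor that senses oxysterols, at 53.0 and 46.8 CPM in ZF-SCN9A, against 69.3 and 72.0 CPM in mCherry. The groups did not overlap (log2 fold change -0.49 ± 0.11, SE, adjusted p = 0.000293). At an unadjusted p under 0.05 by edgeR, 2 of the 7 genes were lower and 2 higher. Of all 12899 genes tested, 1084 (8.4%) were lower and 1003 higher. In the other lists no gene passed. They held 12 tested genes of SREBP processing and turnover (median -0.01), 13 of sterol uptake, storage and transport (-0.0017), 10 of the prenyl, dolichol and ubiquinone branch (0.03), 12 of glycerolipid synthesis (-0.02) and 10 of fatty acid oxidation (-0.04). The unadjusted p was under 0.05 for 1 gene of each of the SREBP processing and sterol uptake lists, both lower. It was also under 0.05 for 2 genes of the prenyl list and 1 of each of the glycerolipid and oxidation lists, all higher. These counts stand against the same 1084 lower and 1003 higher of 12899 genes.

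With dCas9 directed at SCN9A, no gene of the set passed. Of the 34 genes 0 were called, against 0.041% of the 14628 genes tested and 0.00684% called lower, by edgeR, and 0 likewise by DESeq2, by limma-voom and under each of the 16 alternatives tried. At an unadjusted p under 0.05, 4 of the 34 genes were lower and 0 higher, against 5.92% lower of all genes. They were Acly, Fasn, Me1 and Nsdhl. The sterol branch had a median of -0.01, with 12 of 19 genes negative, and with plain library sizes in place of TMM scaling it was 0.01 with 7 of 19 negative. All 10 fatty acid genes were negative, with a median of -0.11, against 48.3% of all genes. The 5 regulators lay between -0.06 and -0.03.

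The 4 sterol genes that fell with the zinc finger had values near 0 with dCas9. Hmgcs1 had 249, 275 and 247 CPM in dCas9-SCN9A, against 253, 266 and 253 CPM in dCas9-empty. The libraries overlapped, with a log2 fold change of -0.0011 and a 95% interval from -0.12 to 0.11. Sqle, Lss and Cyp51 were at -0.03, -0.01 and -0.04, with intervals that together reached from -0.15 to 0.11. Mvk had the largest fold change of the branch, 0.17 ± 0.09 (SE, adjusted p = 0.533). It stood at 21.3, 22.3 and 21.3 CPM in dCas9-SCN9A, against 20.5, 19.7 and 17.6 CPM in dCas9-empty.

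In the fatty acid branch Fasn had 947, 863 and 917 CPM in dCas9-SCN9A, against 1009, 987 and 993 CPM in dCas9-empty. All dCas9-SCN9A libraries were lower (log2 fold change -0.13 ± 0.06, SE, unadjusted p = 0.0341 by edgeR's model over all genes, adjusted p = 0.448). Acly had 1403, 1360 and 1339 CPM in dCas9-SCN9A, against 1552, 1536 and 1422 CPM in dCas9-empty, and Me1 167, 171 and 162 CPM in dCas9-SCN9A, against 183, 190 and 176 CPM in dCas9-empty. Neither pair of groups overlapped, at log2 fold changes of -0.14 ± 0.06 and -0.13 ± 0.05. Acaca had the largest fold change, -0.14 ± 0.07, with 87.4, 73.7 and 83.3 CPM in dCas9-SCN9A overlapping 97.2, 85.5 and 86.0 CPM in dCas9-empty. All dCas9-SCN9A libraries lay below all dCas9-empty libraries in 4 of the 34 genes, against 9.14% of all genes tested.

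The fold change ran with transcript length in this comparison. Its Spearman correlation with exon length over all genes tested was -0.348, against -0.124 in the zinc-finger comparison, and the fatty acid genes had a median exon length of 5371 bases, against 3984 over all genes tested with dCas9. With a correction for exon length the fatty acid median was -0.0511, and all 10 genes were still negative, against 46.5% of all genes. Acaca was then at -0.02 and Fasn at -0.06, while Acly was at -0.12 and Me1 at -0.13. The zinc-finger medians were -0.26 for sterol genes and -0.23 for fatty acid genes with the same correction. Of the hepatocyte and adipocyte markers, 3 of 5 averaged at least 1 CPM in dCas9-SCN9A and 2 of 5 in dCas9-empty, with a summed level of 23.0 to 88.5 CPM in dCas9-SCN9A and 27.9 to 102.9 CPM in dCas9-empty. In both groups replicate 1 had the highest level of Alb. Scd1, a gene that liver also expresses, had 28.6, 21.7 and 19.1 CPM in dCas9-SCN9A and 28.4, 23.3 and 22.8 CPM in dCas9-empty. It was highest in replicate 1 of both groups, as were Acly, Fasn and Acaca, while Scd2 was highest in replicate 2 of both. The order is thus not particular to Scd1. The origin of the Alb reads is not known, and the part of RNA from other cells in these values was not tested.

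No gene of the set passed the test of the difference between the changes with the zinc finger and with dCas9. The difference is the log2 fold change with ZF minus that with dCas9, fitted over all 10 libraries, and 0.907% of 15766 genes passed it, 0.647% with a lower value. Of the 34 genes 0 passed by edgeR, an unadjusted p under 0.05 was reached by 11 lower genes and 1 higher gene (5.49% lower of all genes), while DESeq2 and limma-voom each passed 1, Fasn. The value was below 0 in 30 of 34 genes, against 49.9% of all genes, with a median of -0.24 over the sterol genes, -0.15 over the fatty acid genes and -0.06 over the regulators. The repressors were transfected with different controls and the arms differed in depth, so that arm and repressor cannot be told apart.

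The smallest p of the set belonged to Hmgcs1, with a difference of -0.36 ± 0.09 (SE, 95% interval -0.55 to -0.17, adjusted p = 0.0573). Fasn followed at -0.33 ± 0.09 (-0.52 to -0.15, adjusted p = 0.0781). Lss was at -0.31, Sqle at -0.27 and Cyp51 at -0.26, and the intervals of these 3 genes together reached from -0.50 to -0.08. Hmgcs1 passed with plain library sizes, without the filter on low counts and with the correction for exon length, among other alternatives. Fasn passed by DESeq2, by limma-voom, without that filter and with that correction, among others. The calls of both genes thus turn on the processing. Fdps had the largest value, -0.58, with an interval from -1.20 to 0.05. Acly was higher with the zinc finger by 0.20, with an interval from 0.02 to 0.37, and did not pass (adjusted p = 0.374).

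For the desaturases and regulators every interval of the difference included 0, and that of Scd1 was the widest. Scd2 was at -0.10 (95% interval -0.29 to 0.10), Scd1 at -0.31 (-1.12 to 0.50), Fads1 at 0.01 (-0.17 to 0.19) and Fads2 at -0.06 (-0.23 to 0.12). Srebf2 was at -0.06 (-0.24 to 0.12), Srebf1 at -0.13 (-0.30 to 0.05), Scap at -0.05 (-0.23 to 0.14), Insig1 at -0.01 (-0.20 to 0.17) and Insig2 at -0.15 (-0.41 to 0.10). Outside the set, the difference passed for Acsl1, at -1.19 ± 0.10 (SE, adjusted p = 2.51e-09), and for Nr1h2, at -0.58 ± 0.11 (adjusted p = 0.00527). With dCas9 Acsl1 had 114, 107 and 108 CPM in dCas9-SCN9A, against 122, 121 and 120 CPM in dCas9-empty, and did not pass (adjusted p = 0.344).

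On a scale per length (CPM per kb of exon, all 10 libraries scaled together), the 34 genes spanned from Scd2 to Fdps in every group. Scd2 averaged 425.5 ± 4.48 in ZF-SCN9A, 495 ± 13.5 in mCherry, 602 ± 45.2 in dCas9-SCN9A and 655 ± 28.9 in dCas9-empty, and Acly came next in each group. Fasn ranked after Srebf2 in ZF-SCN9A, at 75.7 against 94.8, and level with it in mCherry, at 105 against 103, where the libraries of both genes overlapped. In dCas9-SCN9A and dCas9-empty, Srebf2 and Srebf1 both exceeded Fasn. The most abundant sterol genes were Cyp51 and Mvd, at 48.5 and 45.0 in ZF-SCN9A, 59.5 and 53.0 in mCherry, 61.4 and 75.2 in dCas9-SCN9A and 63.1 and 74.8 in dCas9-empty. Fdps was lowest, at 1.09 in ZF-SCN9A, 1.499 in mCherry, 1.64 in dCas9-SCN9A and 1.49 in dCas9-empty. Gm43738 shares 26.7% of the exon bases of Fdps, so some Fdps reads may have been left uncounted. Exon length counts every annotated exon, so a gene with many unused exons reads low on this scale.

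**Figure D4:**
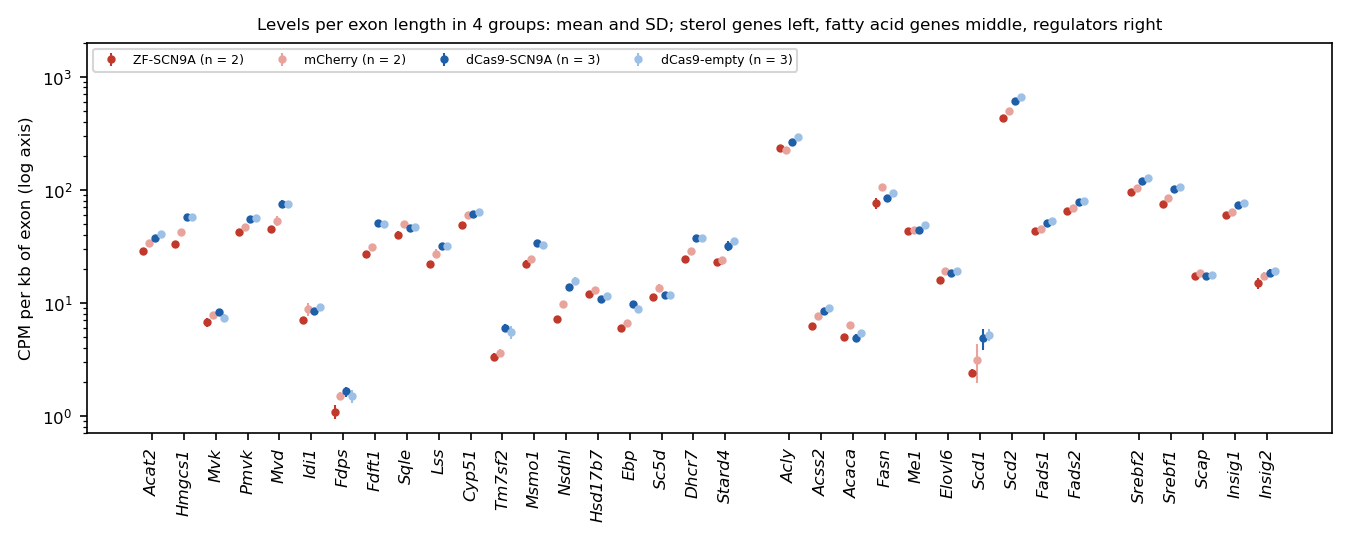
Level of each of the 34 genes in CPM per kb of exon on a log axis, mean (points) and SD (lines) in ZF-SCN9A, mCherry (n = 2 each), dCas9-SCN9A and dCas9-empty (n = 3 each). Scd2 is highest and Fdps lowest in every group.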

How the data were processed

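Raw counts of reads per gene were deposited for each library, 1 unstranded column and 2 by strand, as STAR writes them. The submitters' processing notes name bcl2fastq 2.20, STAR 2.7.3a, DESeq2 and the build GRCm38. How the authors trimmed and counted, and with which annotation release, is not stated there. The stranded columns held about equal totals in each library (ratios of 1.001 to 1.009), so the unstranded column was used. Of 55401 identifiers, 55141 were found in GENCODE M21, the source of symbols and gene coordinates. Entries that name no gene held 27.8% of reads in ZF-SCN9A, 25.8% in mCherry, 27.9% in dCas9-SCN9A and 26.1% in dCas9-empty on average, and these and 4 plasmid entries stayed out of library sizes and tests. The labels do not say that replicates were separate cultures, so the p-values cover the spread between these libraries alone, which may be technical. No replicate pair was within sampling noise by a chi-square test of its gene counts.

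Tests used edgeR 4.0.16 (quasi-likelihood, robust, TMM scaling, filter on low counts, two-sided, limma 3.58.1, R 4.3.3) over all genes of a comparison, with Benjamini-Hochberg adjustment and a threshold of 0.05. Each repressor was fitted with its own control, and the difference of the changes over all 10 libraries. In the zinc-finger fit the residual degrees of freedom were 2 and the prior was infinite for 88.0% of genes, whose p-values rest on spread shared across genes. Biological coefficients of variation were 5.12% (zinc finger) and 6.07% (dCas9). CPM is the count per 1e6 gene counts after TMM scaling. Each SE of a log2 fold change and each 95% interval is that of the fit. For genes with an infinite prior these too reflect pooled variance, and not the scatter of the single gene. Alternatives were other scalings, DESeq2 1.42.0, limma-voom, no filter, a filter at 1 CPM, the replicate number as a block, a loess correction for exon length, a fit of all 10 libraries and leaving out each library. The genes and lists were chosen with earlier results of these data known, among them the sterol decreases with the zinc finger. Full values are given for called genes, regulators and the largest fold change of each branch and comparison, and outside the set for called genes, at most 4 a list. Acly, Me1, Stard4, Scd1 and the genes close to the threshold are named as well, after their values were seen. Promoters are RefSeq sequences of GRCm38.p6. A few genes of these pathways are not analysed here.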

Additional observations from a re-analysis of the deposited data

Results flagged for a closer look

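The change of Acsl1 differed between the repressors by the test of the difference itself, at -1.19 on the log2 scale (ZF minus dCas9, edgeR adjusted p = 2.51e-09). That of Nr1h2 differed likewise, at -0.58 (adjusted p = 0.00527). Reads were also listed for plasmid entries that no comparison used. The entry named ZF held 39820 counts per 1e6 gene counts on average in ZF-SCN9A, against 3.59 in mCherry. The entry named mCherry held 28620 per 1e6 in mCherry, against 5.93 in ZF-SCN9A, so both groups carried a high load of their own plasmid entry. The entry named dCCas9 held 11900 per 1e6 in dCas9-SCN9A, against 7962 in dCas9-empty, while the entry named dNCas9 held 3684 per 1e6 in dCas9-SCN9A and 4781 in dCas9-empty. The part of plasmid load in the values of the 34 genes was not tested.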

How the results depend on the processing

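None of the 8 genes called with the zinc finger changed sign under the 14 alternatives tried. With dCas9 and for the difference no gene of the 34 was called, so there was no call to reverse. With the zinc finger, 609 genes and 8 of the 34 were called. DESeq2 called 128 genes and 2 of the 34, and the fit of all 10 libraries 348 genes. The exon length correction with the replicate block called 839 genes and 13 of the 34, Srebf1 among them. Leaving out 1 library gave 201 to 787 genes and 2 to 8 of the 34, a sterol median of -0.27 to -0.17 and a fatty acid median of -0.24 to -0.14. The sterol median was -0.26 with the exon length correction.

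With dCas9, 6 genes were called, against 28 by DESeq2, 172 with no filter, 2 with the exon length correction, 29 in the fit of all 10 libraries and 1 to 34 on leaving out 1 library. The fatty acid median of -0.11 was -0.0511 with the length correction, with or without the block, and -0.14 to -0.08 on leaving out 1 library. The sterol median was -0.02 to 0.03 on leaving out 1 library. For the difference between the repressors, 143 genes and 0 of the 34 were called. No filter gave 274 genes and 2 of the 34, plain library sizes, DESeq2 and limma-voom 1 each, the length correction 2, and leaving out 1 library 71 to 241 genes and 0 to 1 of the 34. The causes were not tested.

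Deviations from the group means correlated at 0.261, 0.228 and 0.048 between same-numbered libraries of the dCas9 arm. Between libraries of unlike number there, the values were -0.278 to 0.103. In the zinc-finger arm they were 0.073 and -0.073, mirror values that 2 libraries a group force. Whether same-numbered libraries were handled together was not tested. In the dCas9 arm dCas9-empty replicate 3 correlated better with dCas9-SCN9A replicate 2 (0.103) than with its own number. With the replicate block 262 genes were called with dCas9 (83 with the length correction as well), 570 with the zinc finger and 429 for the difference. Of the 34 genes the block called 0 with dCas9 and 9 with the zinc finger, Srebf1 among them. For the difference it called 4, Hmgcs1, Sqle, Lss and Fasn. The zinc-finger arm has 2 libraries a group and the lower depth, and a lone library left in a group was assumed to vary like the others.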
